A study of Mus musculus with 5 samples.

Results

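The 6 distal-less homeobox genes of the mouse, Dlx1 to Dlx6, were examined in mandibular tissue of embryos at embryonic day 10.5. They were taken by gene symbol from a table of read counts, in which all 6 were present among 23441 gene rows. The mutant embryos (dCKO, n = 2 libraries) carried Wnt1Cre together with floxed Yap (Yapf/f) and floxed Taz (Tazf/f) alleles, on a background given as C57BL/6J x CBA/J; 129SvEv. The controls (n = 3 libraries) carried the same floxed alleles with no Cre named, on a 129SvEv background. Wnt1Cre recombines in premigratory neural crest, so the ectoderm, the mesodermal core, the endothelium and the blood of the arch are outside its reach. Strain background and genotype cannot be told apart in this design. Whether each library is a different embryo or litter is not said in the labels, so the tests measure the spread between libraries, which may in part be technical.

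Dlx genes encode homeodomain transcription factors that give the cells of a pharyngeal arch their position along its dorsal to ventral axis. They lie in the genome as linked pairs that are transcribed towards each other and share enhancers: Dlx1 with Dlx2, Dlx3 with Dlx4, and Dlx5 with Dlx6. In the mouse first arch, Dlx1 and Dlx2 are used in both the upper and the lower jaw primordium, Dlx5 and Dlx6 in the lower jaw primordium, and Dlx3 and Dlx4 in its most distal part. Endothelin-1 from the arch epithelium and core acts through the receptor Ednra on crest cells to turn on Dlx5 and Dlx6, and mice without both genes form upper jaw structures in place of the lower jaw.

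The members share their DNA-binding domain, so it was first asked whether reads of one could be taken for another. The homeobox, the stretch of 180 bases that encodes the homeodomain, is shown for Dlx5 and Dlx6, the pair that was lower in dCKO tissue, and for Dlx1 and Dlx2, a pair whose groups overlapped. Sequences are from the GENCODE M21 transcripts (GRCm38, coding strand, 5′ to 3′), and capitals mark the bases that differ between the linked partners.
Dlx5: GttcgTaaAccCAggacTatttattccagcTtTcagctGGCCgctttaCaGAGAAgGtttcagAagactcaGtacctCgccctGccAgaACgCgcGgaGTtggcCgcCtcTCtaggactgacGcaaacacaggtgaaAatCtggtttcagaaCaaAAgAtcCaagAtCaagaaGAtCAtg
Dlx6: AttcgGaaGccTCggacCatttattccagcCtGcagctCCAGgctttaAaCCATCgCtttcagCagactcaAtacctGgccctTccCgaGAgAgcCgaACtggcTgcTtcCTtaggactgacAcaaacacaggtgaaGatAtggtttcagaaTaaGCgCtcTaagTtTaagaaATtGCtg
Dlx1: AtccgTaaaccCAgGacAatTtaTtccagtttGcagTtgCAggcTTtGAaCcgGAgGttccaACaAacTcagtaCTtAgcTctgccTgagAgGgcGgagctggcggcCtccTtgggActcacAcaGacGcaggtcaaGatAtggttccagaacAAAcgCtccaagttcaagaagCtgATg
Dlx2: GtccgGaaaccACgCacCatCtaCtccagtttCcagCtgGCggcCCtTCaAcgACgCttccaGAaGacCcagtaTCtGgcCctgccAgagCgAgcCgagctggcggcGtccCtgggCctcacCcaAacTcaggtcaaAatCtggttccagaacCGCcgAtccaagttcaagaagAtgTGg
Dlx5 and Dlx6 differed at 48 of the 180 bases and at 9 of the 60 encoded residues, and Dlx1 and Dlx2 at 47 bases and 8 residues. Linked partners were not the nearest relatives by protein: Dlx1 and Dlx6 differed at 2 residues of the homeodomain and Dlx2 and Dlx5 at 4. Over the longest coding transcripts, the longest run of bases that any 2 of the 6 genes shared was 23, between Dlx2 and Dlx3, Dlx2 and Dlx6, and Dlx3 and Dlx5. A read longer than this that matches without error therefore fits at most 1 member. No source used here gives the read length.

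Library totals ran from 11346480 to 13298973 counts in dCKO and from 6491137 to 7439419 in control tissue. The targeted genes were lower in dCKO tissue: Yap1 stood at 175 and 170 CPM (counts scaled to library size with TMM factors) in dCKO libraries, against 312, 475 and 512 CPM in controls, and Wwtr1, the symbol of Taz, at 22.7 and 22.8 CPM against 38.4, 65.1 and 66.2 CPM. Over 12710 genes tested with edgeR's quasi-likelihood test, 180 were called lower (1.42%) and 636 higher (5%) in dCKO tissue at a Benjamini-Hochberg adjusted p below 0.05. An unadjusted p below 0.05 was reached by 2738 genes (21.5%), 1511 of them higher (11.9% of all tested). Scaled by total counts alone, without TMM factors, the split was 469 lower and 531 higher. All 10 tested red blood cell genes were called higher, and the summed level of that list was 79881 and 55664 CPM in dCKO libraries, against 4422, 3549 and 3412 CPM in controls. Its part in the Dlx results was not tested.

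Of the 6 Dlx genes, 2 were called lower in dCKO tissue, Dlx5 and Dlx6, and none higher. With 1.42% of all tested genes called lower, 2 of 6 is 1 pair of linked genes that share enhancers, not 2 independent draws. No member had an unadjusted p below 0.05 in the higher direction in edgeR, DESeq2 or limma-voom, and each of these tools called the same number of members lower. In 4 members, Dlx3, Dlx4, Dlx5 and Dlx6, both dCKO libraries lay below every control library, as they did in 18.6% of all tested genes. The median log2 fold change was −0.45 over the 6 members and −0.00062 over all tested genes. Summed over the family, Dlx transcripts measured 472 and 471 CPM in dCKO libraries and 533, 537 and 679.8 CPM in control libraries. As these are bulk samples, fewer cells that use a gene and less of its RNA per cell cannot be told apart.

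**Figure D1:**
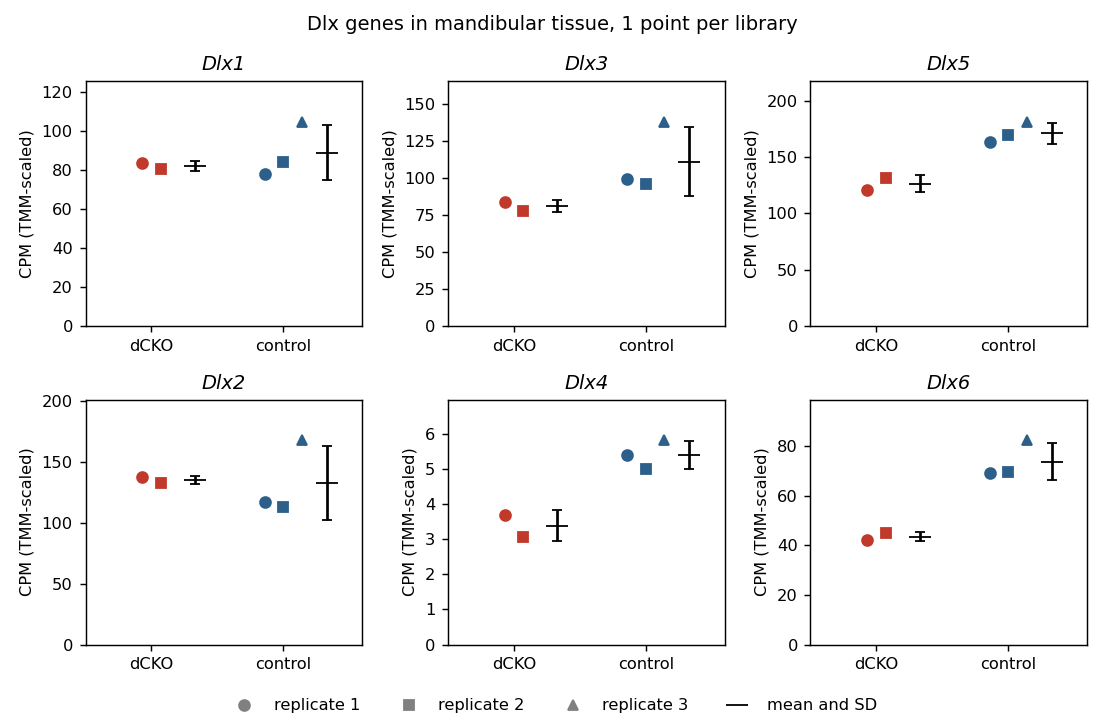
TMM-scaled CPM of the 6 Dlx genes (y axes, each from 0) in 2 dCKO libraries (red, left) and 3 control libraries (blue, right). Each point is a library, with its replicate number shown by its shape, and black marks give the mean and SD of each group. The groups are apart for Dlx3 to Dlx6 and overlap for Dlx1 and Dlx2, where control replicate 3 is the highest library.

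Dlx6 showed the clearest difference of the family. It measured 42.2 and 44.8 CPM in dCKO libraries, against 69.4, 69.5 and 82.3 CPM in control libraries. Both dCKO libraries were far below the lowest control. The log2 fold change was −0.76 (SE 0.13, 95% interval −1.04 to −0.48, edgeR adjusted p = 9.28e-04), or 0.591 of the control level. Dlx5, its linked partner, measured 121 and 132 CPM in dCKO libraries, against 163, 169 and 181 CPM in control libraries. Again no library of one group entered the range of the other. Its log2 fold change was −0.44 (SE 0.12, 95% interval −0.69 to −0.18, edgeR adjusted p = 0.0353), or 0.738 of the control level. The call of Dlx6 held with any single library left out, with log2 fold changes from −0.80 to −0.68. That of Dlx5 was lost without dCKO replicate 1 or 2 or control replicate 1 or 2 (edgeR adjusted p = 0.309, 0.0806, 0.0755 and 0.102), at log2 fold changes from −0.50 to −0.37.

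Dlx3 and Dlx4, genes of the distal arch that Dlx3 also shares with the surface ectoderm, were lower in both dCKO libraries without passing the test. Dlx3 measured 83.8 and 78.0 CPM in dCKO libraries, against 99.3, 95.8 and 138 CPM in control libraries. Control replicate 3 stood well above the other controls. The log2 fold change of Dlx3 was −0.45 (SE 0.15, 95% interval −0.76 to −0.15, edgeR adjusted p = 0.0747), as large as that of Dlx5 but with a wider spread among controls. It passed without control replicate 2 (log2 fold change −0.55, edgeR adjusted p = 0.0330) and stood at −0.28 without control replicate 3 (edgeR adjusted p = 0.121). Correction of each library for GC content also made it pass (−0.64, SE 0.12, edgeR adjusted p = 0.00247). Dlx4 was by far the rarest member, with 40 and 40 reads in dCKO libraries and 41, 37 and 38 reads in control libraries. Scaled to depth, this was 3.70 and 3.06 CPM against 5.39, 5.005 and 5.81 CPM. The groups did not overlap, but counting error is large at this level. The log2 fold change of Dlx4 was −0.68 (SE 0.33, 95% interval −1.37 to 0.01, edgeR adjusted p = 0.243).

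Dlx1 and Dlx2, the genes used in both jaw primordia, had overlapping groups. Dlx1 measured 83.6 and 80.2 CPM in dCKO libraries, against 77.9, 84.0 and 105 CPM in control libraries. Its log2 fold change was −0.12 (SE 0.13, 95% interval −0.39 to 0.16, edgeR adjusted p = 0.659). Dlx2 measured 138 and 133 CPM in dCKO libraries, against 117, 113 and 168 CPM in control libraries. The dCKO values lay between control replicate 3 and the other controls. The log2 fold change of Dlx2 was 0.03 (SE 0.15, 95% interval −0.29 to 0.35, edgeR adjusted p = 0.932). Without control replicate 3 the log2 fold changes of Dlx1 and Dlx2 were 0.0097 and 0.23 (edgeR adjusted p = 0.967 and 0.179). The intervals of Dlx1 and Dlx2 both exclude a fall as large as the estimate for Dlx5, but each overlaps the interval of Dlx5 (−0.69 to −0.18). The difference between these genes and Dlx5 was not tested, and the misses themselves do not show that the pair was unchanged.

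The balance within each linked pair was read from the raw counts of each library, which needs no scaling between libraries. Dlx6 made up 25.8% and 25.4% of the summed reads of Dlx5 and Dlx6 in dCKO libraries, against 29.8%, 29.1% and 31.2% in control libraries. The 95% Wilson intervals ran from 23.7% to 27.9% over the dCKO libraries and from 27.0% to 33.5% over the controls, and cover counting error only. The share was lower in both dCKO libraries than in any control library. The mean log2 ratio of Dlx6 over Dlx5 was −1.54 ± 0.02 in dCKO (SD, n = 2) and −1.22 ± 0.07 in control tissue (SD, n = 3), a difference of −0.32. An exact permutation test over the 5 libraries gave p = 0.2, two-sided, which is the smallest value that 2 against 3 libraries allow (0.3 after Benjamini-Hochberg adjustment over the 3 pairs).

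Dlx1 made up 37.8% and 37.6% of the reads of Dlx1 and Dlx2 in dCKO libraries, against 39.9%, 42.7% and 38.4% in controls. The groups were apart by less than the counting intervals of single libraries, which ran from 35.8% to 39.7% in dCKO and from 36.2% to 45.2% in control libraries. The log2 ratio of Dlx1 over Dlx2 differed by −0.16 (exact permutation p = 0.2, adjusted 0.3). Dlx4 made up 4.22% and 3.78% of the reads of Dlx3 and Dlx4 in dCKO libraries, against 5.14%, 4.97% and 4.04% in controls, with groups that overlapped. The log2 ratio of Dlx4 over Dlx3 differed by −0.24 (exact permutation p = 0.4, adjusted 0.4). No pair could reach the 0.05 threshold in this design, and none of the 3 differences changed sign without any single library.

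**Figure D2:**
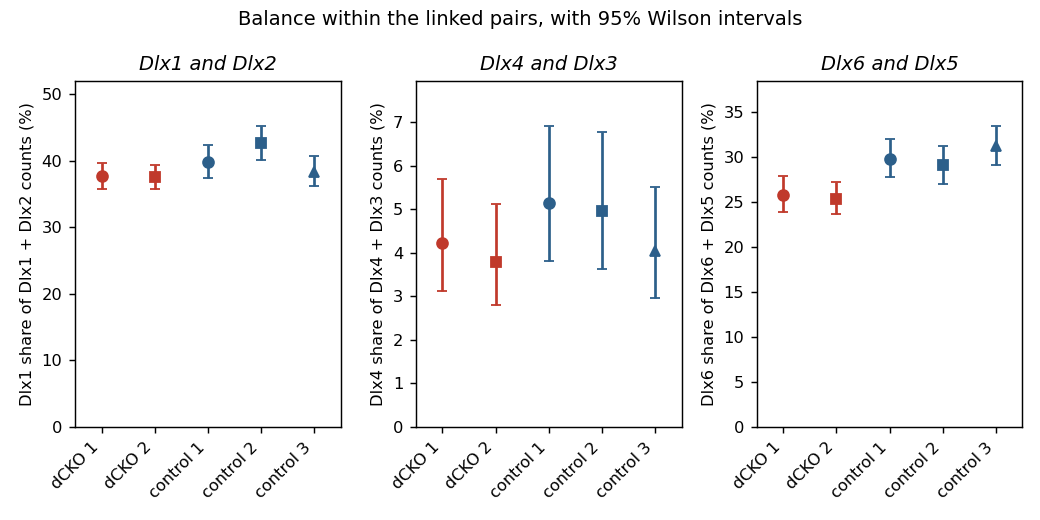
Share of the first gene in the summed raw counts of each linked pair (y axes in percent, each from 0), for each dCKO (red) and control (blue) library. Bars are 95% Wilson intervals for counting error. The Dlx6 share is 25.8% and 25.4% in dCKO libraries and at least 29.1% in controls.

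Per length of the longest coding transcript, Dlx5 was the highest member in every library, with 88.8 ± 5.16 CPM per kb in dCKO (SD, n = 2) and 120.4 ± 6.48 CPM per kb in control tissue (SD, n = 3). Dlx2 followed with 54.8 ± 1.37 and 53.7 ± 12.4 CPM per kb, then Dlx3 with 31.0 ± 1.59 and 42.6 ± 8.94 CPM per kb. In controls, Dlx2 and Dlx3 lay within their joint spread, although Dlx2 was ahead in each library. The order of Dlx6 and Dlx1 differed between the groups. In dCKO tissue they stood level and took turns between the libraries, with 19.6 ± 0.82 CPM per kb for Dlx6 and 19.9 ± 0.58 for Dlx1, whereas in controls Dlx6 was ahead at 33.3 ± 3.36 against 21.6 ± 3.41 CPM per kb. Dlx4 was lowest in each library, with 1.48 ± 0.20 CPM per kb in dCKO and 2.37 ± 0.18 CPM per kb in control tissue. Transcript lengths came from GENCODE M21, a later annotation than one on mm9, so the order of genes of like level is less sure than the differences between groups.

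As shares of all Dlx reads of a library, Dlx6 held 8.94% and 9.52% in dCKO libraries, against 13.0%, 13.0% and 12.1% in controls, with no overlap. Dlx2 stood the other way, with 29.2% and 28.3% in dCKO libraries against 22.1%, 21.0% and 24.7% in controls. It supplied the most reads of the family in both dCKO libraries, but in dCKO replicate 2 by only 1737 reads against 1718 of Dlx5. In each control library Dlx5 supplied the most reads, at 30.6%, 31.6% and 26.7%, against 25.7% and 27.95% in dCKO libraries. Dlx1 held 17.7% and 17.1% of the family's reads in dCKO libraries, against 14.6%, 15.7% and 15.4% in controls, again with no overlap. Shares of 1 total are tied to each other, so a lower share of Dlx5 and Dlx6 raises those of the other members by arithmetic. No test was run on them.

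Processing moved the members by unequal amounts. Dlx6 was called lower under each of the 15 other settings, with log2 fold changes from −0.83 (scaled by total counts alone) to −0.60 (scaled by the cranial neural crest mesenchyme list). Dlx5 lost its call under that crest scaling (log2 fold change −0.28, edgeR adjusted p = 0.225). This scaling raised the median of all genes by 0.16 on the log2 scale and uses a list in which 3 of 18 genes were themselves called lower. Dlx3 was called lower with total counts alone (edgeR adjusted p = 0.0345) and with no filter on low counts (edgeR adjusted p = 0.0184), as well as with the GC trend removed. That correction moved the members with the richest transcripts most: the log2 fold change of Dlx2 (58.3% GC) was −0.19 with it, whereas that of Dlx6 (49.4% GC) was −0.72. Dlx1 and Dlx2 were called under none of the settings, and the sign of each depended on the setting.

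**Figure D3:**
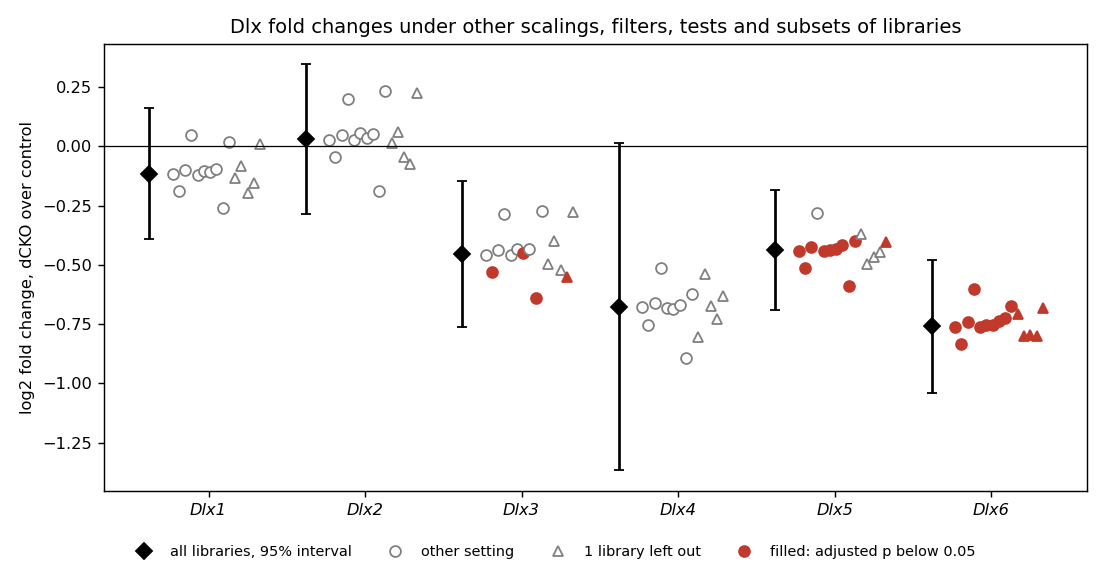
Log2 fold change of each Dlx gene, dCKO over control (y axis). Black diamonds with 95% intervals are from all 5 libraries, circles are other scalings, filters, tests or a replicate block, and triangles leave out 1 library. Filled red marks have an adjusted p below 0.05. Dlx6 is filled throughout, from −0.83 to −0.60, whereas Dlx1 and Dlx2 scatter around 0.

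Each pair has noncoding transcripts that overlap it, and no source used here says whether strand was used in counting. Reads of overlapping partners therefore cannot be told apart. A730090H04Rik, which RefSeq names Dlx4os and places over 1 end of Dlx4, was called lower. It measured 8.97 and 6.43 CPM in dCKO libraries, against 15.6, 13.3 and 15.4 CPM in control libraries, with no overlap. Its log2 fold change was −0.95 (SE 0.23, edgeR adjusted p = 0.0173), a call lost without dCKO replicate 2 or control replicate 1 (edgeR adjusted p = 0.212 and 0.0868). Dlx6os1, the Evf transcript known in mouse forebrain as a regulator of Dlx5 and Dlx6, was not called. It measured 55.3 and 63.5 CPM in dCKO libraries, against 68.8, 46.3 and 76.5 CPM in controls (log2 fold change −0.10, SE 0.17, edgeR adjusted p = 0.772). Dlx1os, antisense to Dlx1, measured 28.1 and 31.2 CPM against 30.9, 31.8 and 49.5 CPM and was highest in control replicate 3, as Dlx1 was (edgeR adjusted p = 0.327). Dlx6as2 had 1 read in all 5 libraries.

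Among 12 tested genes that flank the clusters, 3 were called higher and 1 lower, against 5% and 1.42% of all tested genes. The higher ones all lie beside Dlx3 and Dlx4, the pair whose own members stood lower in dCKO tissue. Samd14, a gene known from blood progenitors, measured 179 and 152 CPM in dCKO libraries against 73.2, 81.4 and 116 CPM in controls. Pdk2, a pyruvate dehydrogenase kinase gene, measured 22.7 and 24.9 CPM against 10.5, 13.7 and 8.86 CPM, and Itga3, an integrin subunit gene of epithelia, 139 and 128 CPM against 87.8, 89.3 and 103 CPM. The log2 fold change was 0.88 for Samd14 (SE 0.16), 1.11 for Pdk2 (SE 0.20) and 0.52 for Itga3 (SE 0.12), with edgeR adjusted p-values of 0.00111, 0.0014 and 0.0124. Itga3 lost its call without dCKO replicate 1 or control replicate 1 or 2 (edgeR adjusted p = 0.128, 0.0652 and 0.0606), and after the GC trend was removed (0.0944). Beside Dlx6, the proteasome subunit gene Shfm1 fell by 0.44 on the log2 scale (SE 0.13, edgeR adjusted p = 0.0495), but its log2 fold change was −0.105 with the GC trend removed (edgeR adjusted p = 0.642). Leaving out dCKO replicate 1 or 2 or control replicate 1 or 2 ended that call (edgeR adjusted p = 0.133, 0.262, 0.279 and 0.153), as did upper quartile scaling, the crest scaling and a stricter filter (0.0596, 0.25 and 0.0677).

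Upstream of Dlx5 and Dlx6, none of 9 tested endothelin genes was called by edgeR, DESeq2 or limma-voom, and none had an unadjusted p below 0.05 in any of these. The list's median log2 fold change was −0.0029. Edn1, the ligand gene, measured 3.51 and 3.599 CPM in dCKO libraries and 3.81, 2.30 and 5.04 CPM in controls (log2 fold change −0.055, 95% interval −0.86 to 0.75). Ednra, its receptor gene on crest cells, measured 30.8 and 35.5 CPM against 43.4, 33.4 and 44.8 CPM, with groups that overlapped (log2 fold change −0.29, 95% interval −0.62 to 0.05). Gnaq, which encodes the G protein subunit downstream of Ednra, measured 67.8 and 74.7 CPM against 88.3, 80.9 and 81.3 CPM, with groups that did not overlap (log2 fold change −0.23, 95% interval −0.48 to 0.02). In 2 of the 9 genes both dCKO libraries lay below every control, against 18.6% of all tested genes. The intervals of Edn1, Ednra and Gnaq all include the value estimated for Dlx5, so the misses do not show that these genes were unchanged. Among 17 tested BMP signalling genes, Bmpr1b, a type I receptor gene, was called lower and none higher, with a median of −0.041. Over all tested genes, 1.42% were called lower. Bmpr1b measured 29.5 and 29.8 CPM in dCKO libraries against 40.5, 39.4 and 48.4 CPM in controls (log2 fold change −0.53, SE 0.15, edgeR adjusted p = 0.0433). It did not pass without dCKO replicate 1 or 2 or control replicate 1 or 3 (edgeR adjusted p = 0.26, 0.182, 0.0923 and 0.0604), nor after removal of the GC trend (0.307), with the crest scaling (0.189) or with a stricter filter (0.0556). Smad6, an inhibitor of BMP signalling, measured 38.4 and 39.4 CPM in dCKO libraries against 27.1, 32.3 and 28.3 CPM in controls, and Id3, a BMP target gene, 282 and 217 CPM against 327, 313 and 283 CPM. Bmp2, a ligand gene, stood higher in dCKO libraries, at 2.03 and 3.14 CPM against 1.45, 0.541 and 1.37 CPM in controls. None of these passed (edgeR adjusted p = 0.115 for Smad6, 0.177 for Id3 and 0.175 for Bmp2). The groups of each did not overlap, but for Id3 the higher dCKO library (282 CPM) lay just under the lowest control (283 CPM). Of the 17 genes, 7 had both dCKO libraries below every control, against 18.6% of all tested genes. Another 4 had both above every control.

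Genes known from mouse mutants to need Dlx5 and Dlx6 in the lower jaw went both ways. Of 10 such genes other than Dlx members, 2 were called lower and 1 higher, against 1.42% and 5% of all tested genes, with a median log2 fold change of 0.0099. Cited1, a transcriptional coregulator gene, measured 23.3 and 27.1 CPM in dCKO libraries against 45.5, 54.0 and 55.8 CPM in controls. Its log2 fold change was −1.03 (SE 0.15, edgeR adjusted p = 1.38e-04), and it was called lower with any 1 library left out. Gsc, the homeobox gene goosecoid, measured 4.90 and 7.12 CPM against 10.6, 22.6 and 16.2 CPM, with a log2 fold change of −1.44 (SE 0.29). Gsc was no longer called without dCKO replicate 1 (edgeR adjusted p = 0.0943). Gbx2, another homeobox gene, measured 8.69 and 10.8 CPM against 16.8, 8.93 and 24.3 CPM and did not pass (edgeR adjusted p = 0.139). Alx4, an aristaless-like homeobox gene of the distal arch, stood the other way. It measured 165 and 176 CPM in dCKO libraries against 115, 120.5 and 131 CPM in controls (log2 fold change 0.48, SE 0.12, edgeR adjusted p = 0.0189). Alx4 did not pass with dCKO replicate 1 or 2 or control replicate 1 or 2 left out (edgeR adjusted p from 0.06 to 0.131). Nor did it pass with the GC trend removed (edgeR adjusted p = 0.0685). The 7 others included Unc5c, a netrin receptor gene, at 65.0 and 86.7 CPM in dCKO libraries and 102, 102 and 82.0 CPM in controls (log2 fold change −0.33, 95% interval −0.63 to −0.036, edgeR adjusted p = 0.178), and Hand2, a basic helix-loop-helix gene downstream of endothelin, at 207 and 234 CPM in dCKO libraries and 248, 286 and 228 CPM in controls (log2 fold change −0.20, 95% interval −0.47 to 0.06).

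Of 4 genes that mark the upper jaw primordium and are known to appear in the lower jaw of Dlx5 and Dlx6 mutants, edgeR, DESeq2 and limma-voom called none. Unadjusted p-values below 0.05, all in the higher direction, were reached by 2 of them in edgeR, 0 in DESeq2 and 1 in limma-voom, where edgeR gave such a p to 11.9% of all tested genes. Foxl2, a forkhead gene, measured 13.0 and 14.2 CPM in dCKO libraries against 5.78, 8.66 and 13.0 CPM in controls, with control replicate 3 just under the lower dCKO library. Pou3f3, a POU domain gene, measured 28.5 and 8.35 CPM against 3.28, 13.3 and 12.8 CPM, so that 1 dCKO library alone stood high. Irx5 measured 8.13 and 8.73 CPM against 6.83, 8.25 and 5.65 CPM, with groups that overlapped. Cyp26a1 stood the other way, at 5.45 and 3.98 CPM against 2.50, 10.4 and 7.79 CPM (log2 fold change −0.55, SE 0.41). Its groups overlapped too. The median log2 fold change of the 4 genes was 0.43. Among 6 tested skeletal genes known as Dlx targets, only Spp1, the gene of osteopontin, was called (lower, against 1.42% of all tested genes). It had 4 and 2 reads in dCKO libraries and 22, 18 and 21 reads in controls, for a log2 fold change of −3.42 with SE 0.64 (edgeR adjusted p = 0.00151), and was not called once dCKO replicate 2 was left out (0.0751). Runx2, the regulator of bone formation, was near the detection limit in both groups, at 1.76 and 2.53 CPM in dCKO libraries and 1.45, 0.676 and 2.60 CPM in controls.

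**Figure D4:**
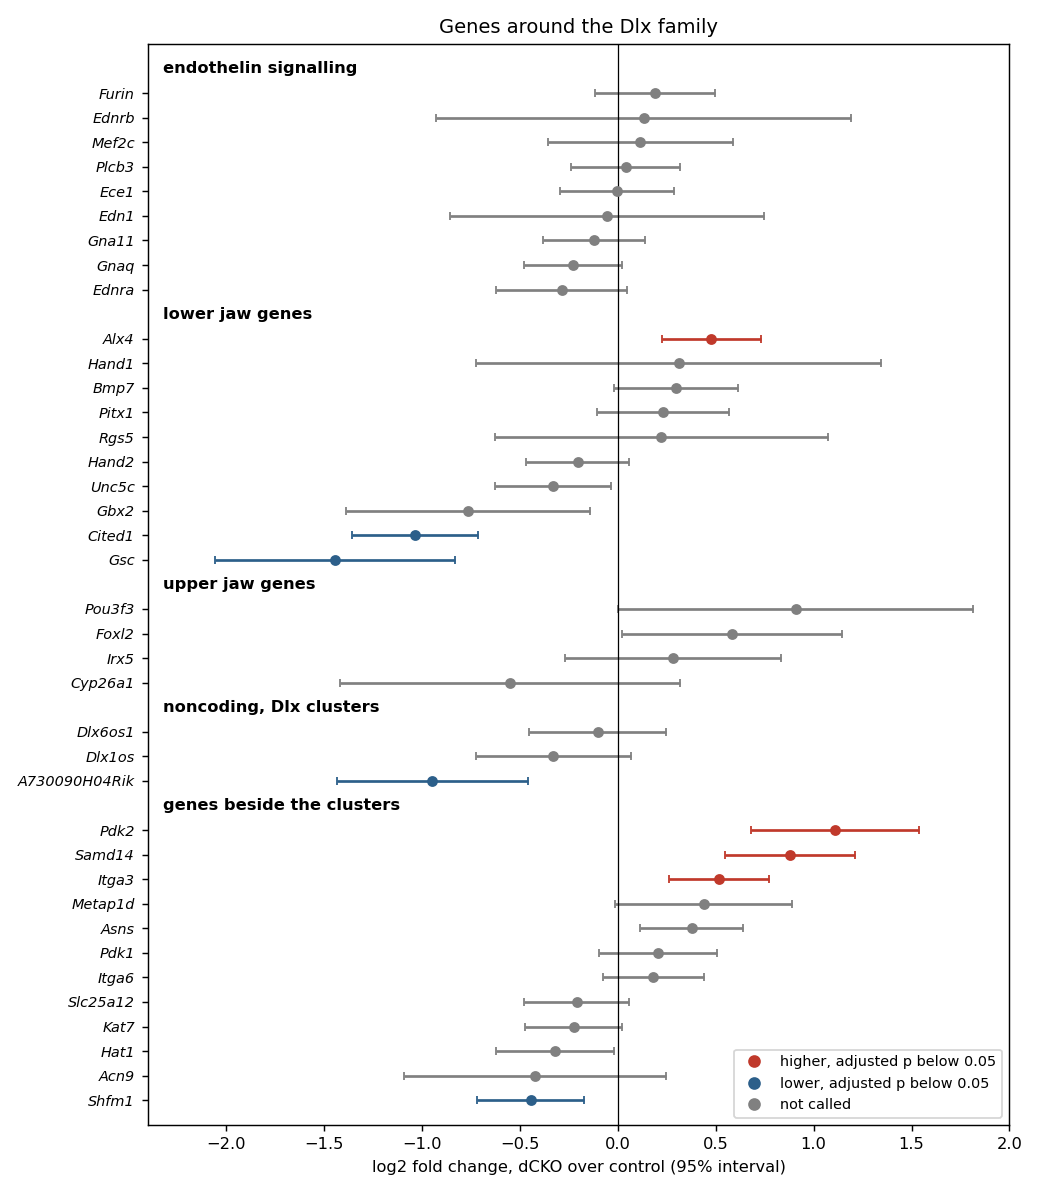
Log2 fold changes, dCKO over control, with 95% intervals (x axis) for tested genes upstream of, downstream of, within and beside the Dlx clusters (rows). Red marks were called higher, blue marks lower and grey marks neither. The endothelin genes run from −0.29 (Ednra) to 0.19 (Furin), none of them called, whereas the lower jaw genes spread from −1.44 (Gsc) to 0.48 (Alx4).

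The tissue carried the markers of arch mesenchyme, and the Dlx signal did not come with forebrain markers. The 18 crest mesenchyme genes summed to 2405 and 2587 CPM in dCKO libraries and to 2769, 2581 and 2786 CPM in controls. Of these 18, 3 were called lower and 0 higher, against 1.42% and 5% of all tested genes, with a median log2 fold change of −0.10. Foxc1, a forkhead gene of cranial mesenchyme, measured 10.5 and 14.8 CPM in dCKO libraries against 28.8, 39.1 and 40.5 CPM in controls (log2 fold change −1.50, SE 0.20, edgeR adjusted p = 4.12e-05) and was called with any 1 library left out. Foxd1, another forkhead gene, measured 13.2 and 17.5 CPM against 19.4, 31.5 and 33.6 CPM, and was not called without dCKO replicate 1 or control replicate 3 (edgeR adjusted p = 0.285 and 0.0556). Prrx1, a homeobox gene of limb and arch mesenchyme, measured 444 and 537 CPM against 726, 586 and 650.5 CPM, and was not called without dCKO replicate 1 or control replicate 1 (edgeR adjusted p = 0.433 and 0.261) or with the GC trend removed, upper quartile scaling, the crest scaling or a stricter filter (0.259, 0.0521, 0.229 and 0.0638). The crest cells are those in which Wnt1Cre acts, and the part of their number or state in the Dlx results was not tested. Forebrain interneurons also use Dlx1, Dlx2, Dlx5 and Dlx6, but Gad2 and Nkx2-1 had at most 0.135 and 0.153 CPM in any library. Lhx6, which the arch also uses, was the single tested gene among 8 of that list and made up most of its sum, at 63.8 and 88.7 CPM in dCKO libraries and 59.0, 54.7 and 73.5 CPM in controls. Dlx3 is also active in the arch epithelium. The 14 epithelium genes summed to 714 and 692 CPM in dCKO libraries and to 502, 596 and 475 CPM in controls. Of them 3, all keratin genes, were called higher and 0 lower, against 5% and 1.42% of all tested genes. Of these keratin genes, Krt19 measured 34.7 and 34.2 CPM in dCKO libraries against 18.1, 16.6 and 20.3 CPM in controls and was called with any 1 library left out. Krt8, at 79.4 and 83.0 CPM against 49.8, 60.6 and 42.0 CPM, was not called without dCKO replicate 2 (edgeR adjusted p = 0.067) or with the GC trend removed (0.0914). Krt18, at 113 and 94.6 CPM against 71.5, 85.6 and 63.4 CPM, was not called without dCKO replicate 1 or 2 or control replicate 1 or 3 (edgeR adjusted p = 0.364, 0.0558, 0.146 and 0.0657), nor with the GC trend removed (0.259) or with total counts alone (0.0668). The 9 genes of arch core mesoderm summed to 91.7 and 74.1 CPM against 54.4, 50.05 and 62.0 CPM. Of 7 tested, 0 were called by edgeR, 0 by DESeq2 and 1 by limma-voom. In edgeR 3 of them had an unadjusted p below 0.05, all in the higher direction, against 11.9% of all tested genes in that direction. Over the 7 tested genes the log2 fold change ran from −0.054 (Isl1) to 1.22 (Myod1), with a median of 0.73. Myod1 had at most 21 reads in a library, and the muscle gene Myf6 was at 0 in all 5 libraries. The 7 Hox genes of the second and more posterior arches summed to 8.23 and 7.04 CPM in dCKO libraries and to 2.63, 4.33 and 1.37 CPM in controls. Of 2 tested, Hoxa2, a gene the first arch does not use, was called higher, against 5% of all tested genes. It had 85 reads over the dCKO libraries and 1 over the controls, at a depth-scaled ratio of 76.7 (95% counting interval 13.4 to 3065). The part of epithelium, mesoderm, posterior arch tissue and blood in the Dlx results was not tested.

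The genes whose profiles over the 5 libraries were nearest to that of Dlx6 were Scd1, Crmp1, Lats2, Dse and Kirrel, among 7935 genes averaging at least 20 CPM. Likeness was the root mean square difference of log2(CPM + 1) values, each gene centred on its own mean, and ran from 0.0714 (Scd1) to 0.115 (Kirrel). Scd1, a fatty acid desaturase gene, measured 79.9 and 84.2 CPM in dCKO libraries against 140.2, 148 and 158 CPM in controls. Those nearest to Dlx5 were Bnc2, Zfp521, Mns1, Pus7 and Fign, at differences from 0.0258 (Bnc2) to 0.0394 (Fign). Bnc2, a zinc finger gene, measured 18.8 and 19.8 CPM against 25.6, 27.3 and 28.7 CPM. With 5 libraries, such likeness mostly restates a difference between the groups.

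In the authors' deposited table Dlx6 had a fold change of 0.601 (adjusted p = 9.20e-04) and was the one Dlx gene with an adjusted p below 0.05. The authors' deposited table gave Dlx5 a fold change of 0.751 (p = 0.00528, adjusted p = 0.134), Dlx3 0.743 (adjusted p = 0.700) and Dlx4 0.638 (adjusted p = 0.680). For Dlx1 and Dlx2 the authors' deposited table gave 0.940 and 1.04, each with an adjusted p of 1. Its fold changes have the same direction as those above for all 6 members.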

How the data were processed

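Poly(A) RNA libraries of mandibular tissue, 3 control and 2 dCKO, were grouped by sample titles. The authors deposited raw read counts per gene symbol, in columns headed WT where the titles say control, matched on the replicate number. A second deposited table gives their comparison: per the file headers, its columns are mean normalized counts (a signal), the fold change as a ratio, its log2 value, and raw and adjusted p-values. HTSeq 0.5.4p3, DESeq 1.16.0 and mm9 are named in the submitters' processing notes. The aligner, annotation and read length, and whether counting used strand, are given in none of the sources used here.

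Counts were tested with edgeR 4.0.16 (R 4.3.3): filterByExpr (minimum count 10, minimum total count 15), TMM factors, then glmQLFit and glmQLFTest. Tests were two-sided, and p-values were adjusted over 12710 genes by Benjamini and Hochberg's method. CPM values are TMM-scaled, with no count added. Standard errors are the absolute log2 fold change over the root of F, and 95% intervals use the test's degrees of freedom. Linked pairs were compared by log2 ratios of counts plus 0.5 with an exact permutation test (scipy 1.17.1). The alternatives were RLE, upper quartile, no factors or a crest mesenchyme list for scaling, DESeq2 1.42.0, limma-voom (limma 3.58.1), 2 other filters, removal of each library's GC trend, single libraries left out, and a replicate block. The fit was tested on simulated data. Where 1 dCKO library was left, it was taken to vary like the controls.

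The genes to name were set by a rule (all Dlx genes, called members of the lists, up to 4 others of each list, and nearest profiles), but red blood cell genes are given only as a sum, and fewer than 4 others of most lists are named. Edn1, Hand1, Hand2, Rgs5, Isl1, Gad2, Nkx2-1 and Myf6 are named outside it, after their values were seen. Single values of other listed genes, and 1 gene of the lower jaw list, are not reported here. The members and lists were chosen with earlier results of these data known. No library repeats another: replicates differed beyond counting noise, with a chi-square of 4.43 to 14.1 per gene.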

Additional observations from a re-analysis of the deposited data

How the results depend on the processing

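Dlx6 was called lower under all 15 other settings. The number of Dlx genes called lower was 2, but 1 with the crest mesenchyme scaling and from 1 to 2 with single libraries left out; the other settings gave 2 or 3, and none called a Dlx gene higher. The log2 fold change of Dlx1 was 0.049 with the crest scaling and 0.018 with the replicate block, and ran from −0.20 to 0.0097 with single libraries left out. That of Dlx2 was −0.043 with total counts alone and −0.19 with the GC trend removed. It was −0.044 without control replicate 1 and −0.074 without control replicate 2, and at most 0.23 with any single library left out. The 3 pair ratios kept their sign with 1 added to each count and with any single library left out. For these ratios the block setting was the same as leaving out control replicate 3. With a single library left out, the difference in log2 ratio ran from −0.22 to −0.09 for Dlx1 over Dlx2, from −0.36 to −0.16 for Dlx4 over Dlx3 and from −0.35 to −0.28 for Dlx6 over Dlx5.

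Of all genes, 636 were called higher and 180 lower. These counts were 1238 and 51 with the crest scaling, and 1200 and 921 with the replicate block. Lower genes numbered 469 with total counts alone and 305 with no filter on low counts. Single libraries left out gave 403 to 950 higher and 39 to 687 lower. The causes were not tested.

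Replicate numbers were shared by 2 pairs of libraries, and nothing in the labels says that they pair them. Across genes, the deviations of same-numbered libraries correlated at 0.084 for number 1 and at −0.0042 for number 2. The deviations of the 2 dCKO libraries from their mean mirror each other. Each value therefore only changes sign with the other dCKO library, and the 2 values are not separate checks of pairing. Number 3 occurs only in controls, so with the block control replicate 3 has no part in the fold changes. With the block, Dlx5 stood at −0.40 (edgeR adjusted p = 0.0176) and Dlx6 at −0.67 (0.0011). Without control replicate 3 and with no block, they stood at −0.40 and −0.68. Among the list genes the block ended the call of Bmpr1b (−0.43, 0.0527). Depth limits Dlx4, which had 37 to 41 reads in each library and was not tested under the stricter filter.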

Other observations

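Control replicate 3 stood apart from the other controls in several genes of the arch axis. It held the highest control value of each of the 6 Dlx genes, with Dlx2 at 168 CPM against 117 and 113 CPM, and Dlx3 at 138 CPM against 99.3 and 95.8 CPM. In the same library Hand1, a gene of the ventral midline of the arch, measured 5.50 CPM, against 87.9 and 91.6 CPM in the other controls and 70.1 and 84.0 CPM in dCKO libraries. Rgs5 measured 2.75 CPM there, against 17.2 and 18.5 CPM in the other controls and 12.2 and 18.0 CPM in dCKO libraries. Without this library the log2 fold change of Dlx6 was −0.68 and that of Dlx5 −0.40, both called lower (edgeR adjusted p = 0.0033 and 0.0277). Hand1 and Rgs5 were picked out after their values were seen.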
